A study of Mus musculus with 14 samples.

Results

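The genes described here are 32 transcripts that mark Bergmann glia and other astrocytes, taken as a fixed list of names out of the 24100 genes in a count table from mouse cerebellum. The rule that picks them uses names and no measured values, though the list was drawn up with earlier results of these data known. All 32 genes passed the filter on low counts in every fit. Astrocytes take up glutamate and potassium, join into networks through gap junctions and line blood vessels with end-feet. Bergmann glia are the radial astrocytes of the cerebellar cortex: their cell bodies sit beside the Purkinje cells, and their fibres wrap Purkinje cell dendrites and synapses. Most of the 32 genes encode the channels, transporters, enzymes and secreted proteins through which these cells do this work.

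The libraries came from cerebellum of mice at postnatal day 21 that were either Astn2 wild type (WT) or Astn2 knockout (KO). Astn2 encodes astrotactin 2, a neuronal membrane protein. Per the labels' protocols, all mice carried the Tg(Pcp2-Egfp-L10a) transgene, in which the Purkinje cell promoter Pcp2 drives a ribosomal protein tagged with EGFP. Translating ribosome affinity purification (TRAP) captured tagged ribosomes with antibodies against GFP, and part of the cleared homogenate, kept aside before the capture, served as input, that is, whole cerebellum. The design held 4 input WT libraries (1 from a female and 3 from males), 3 input KO libraries (2 female, 1 male), 3 TRAP WT libraries (1 female, 2 male) and 4 TRAP KO libraries (2 female, 2 male). The labels do not state that libraries of a group came from separate animals, so p-values measure the spread between these libraries, which may be partly technical.

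Library totals ran from 18.8 to 54.2 M counts, and a count of 3 corresponds to between 0.0444 and 0.204 CPM (counts scaled to the library's size), a floor that covers counting error only. Astn2 itself checked the labels: it measured 87.8 to 145 CPM in the WT libraries of both fractions and 0.739 to 2.10 CPM in the KO libraries. Of the Purkinje cell markers, all 8 of 8 were higher in TRAP than in input in both genotypes, and their median log2 fold change was 3.85 in the WT libraries and 3.76 in the KO libraries. The astroglial markers Gdf10, Aqp4 and Gja1 were present in every library. Their summed level was 412 to 530 CPM in input WT and 460 to 468 CPM in input KO, so whole cerebellum held clear astroglial RNA, and none of the 3 was at 0 in TRAP.

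The genes fell in Purkinje TRAP. In WT, 30 of the 32 were lower in TRAP than in input and 2 were higher, by edgeR's quasi-likelihood test with Benjamini-Hochberg adjustment over all genes at 0.05. Of all 16042 genes tested, 38.5% were lower and 37.0% higher in the same comparison. In KO the counts were again 30 lower and 2 higher, against 39.6% lower and 36.3% higher over all genes. As a median, the 32 genes were at -1.67 (log2 fold change) in WT and at -1.43 in KO, while the median over all genes was -0.0882 and -0.111. Put as a level, the median astroglial gene stood in TRAP at 31.4% of its input level in WT and at 37.1% in KO. These levels depend on scaling. With library totals in place of TMM scaling factors, the median of the 32 genes was -2.49 in WT and -2.16 in KO. The median over all genes moved too, to -0.908 and -0.845, and the distance between these medians stayed at -1.58 and -1.32. Without TRAP WT library 3, the WT median of the 32 genes was -1.32 with TMM factors. Together the 32 genes took up 0.573 to 0.675% of an input library and 0.158 to 0.267% of a TRAP library.

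**Figure D1:**
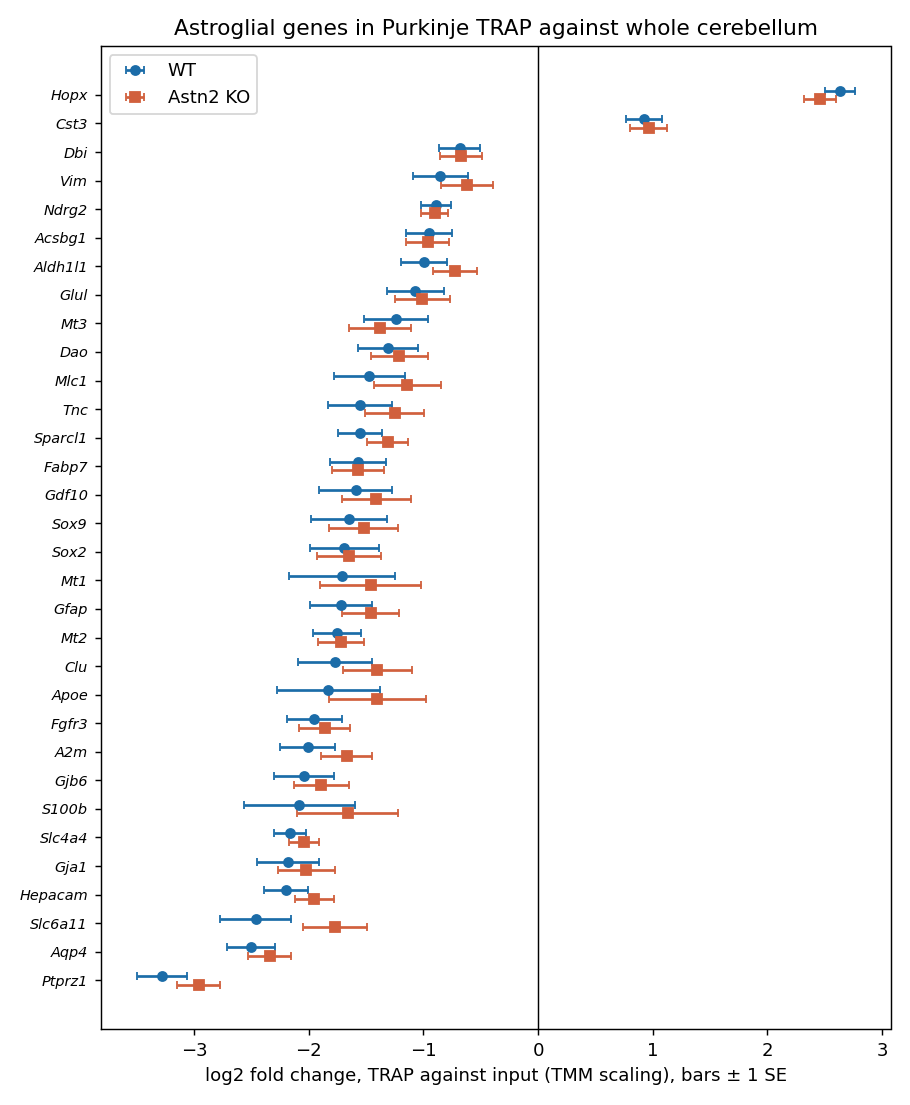
Log2 fold change of TRAP against input for each of the 32 astroglial genes (x axis), with bars of 1 standard error, in WT (circles) and Astn2 KO (squares). Hopx and Cst3 lie to the right of 0 in both genotypes, and the other 30 genes lie to the left, down to Ptprz1 at -3.28 in WT.

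Separation between the fractions held library by library. For 30 genes in WT, the highest TRAP library lay under the lowest input library, and for the other two, Hopx and Cst3, the lowest TRAP library lay over the highest input library; of all genes tested, 38.3% were separated downwards and 34.2% upwards. In KO, 28 genes were separated downwards in this way and Hopx and Cst3 upwards, and Aldh1l1 and Vim overlapped; over all genes the shares were 40.8% downwards and 37.3% upwards. The size of the fall varied widely: 25 genes were more than 1 log2 unit lower in each genotype, and 9 in WT and 4 in KO were more than 2 units lower. TRAP against input compares captured RNA with the homogenate before capture. In a comparison of genotypes in such bulk libraries, RNA from fewer cells of a type and less RNA per cell cannot be told apart. Marker lists of several other cell types were also lower in TRAP in WT, with every gene called lower and medians of -2.44 for 6 granule cell genes, -2.11 for 6 oligodendrocyte genes, -2.07 for 6 microglial genes and -1.68 for 5 endothelial genes. Other lists were mixed in WT: of 5 interneuron genes 4 were lower and 1 higher, of 6 choroid plexus genes 1 was lower, 1 higher and 4 not called, and of 3 ependymal genes tested 1 was lower and 2 not called. The split differed in KO. All 6 granule cell, 6 oligodendrocyte and 6 microglial genes were again lower there, but of 5 endothelial genes 3 were lower and 2 not called. Lower in KO were also 4 of 5 interneuron genes (1 not called), 5 of 6 choroid plexus genes (1 higher) and all 3 ependymal genes tested.

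Gdf10, the growth factor that marks Bergmann glia, lies on chromosome 14 (mm10, 33923587 to 33936514). Its level in input was 142, 156, 141 and 150 CPM in the WT libraries and 169, 156 and 195 CPM in the KO libraries. In TRAP it was 69.9, 57.8 and 21.6 CPM in WT and 58.6, 72.2, 83.9 and 41.0 CPM in KO. Each TRAP value lay below each input value, and the third TRAP WT library was far below the other two. The log2 fold change of TRAP against input was -1.59 ± 0.32 (SE, adjusted p = 4.55e-04) in WT and -1.41 ± 0.30 (adjusted p = 7.67e-04) in KO. Fgfr3, a fibroblast growth factor receptor of astrocytes, was lower too, at -1.95 in WT and -1.86 in KO.

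Among membrane channels and transporters, all 5 genes fell, by a median of -2.18 (WT) and -2.02 (KO) as a log2 fold change. Aqp4, the water channel of astrocyte end-feet, measured 181, 196, 229 and 256 CPM in input WT and 197, 211 and 178 CPM in input KO. In TRAP it measured 41.8, 35.5 and 37.3 CPM in WT and 34.1, 47.6, 44.4 and 24.5 CPM in KO. The highest TRAP library, at 47.6 CPM, lay far under the lowest input library, at 178 CPM, and the 2 genotypes overlapped within each fraction. Aqp4 had one of the largest falls of the list, -2.50 ± 0.21 in WT (adjusted p = 1.19e-07) and -2.34 ± 0.19 in KO (adjusted p = 1.23e-07).

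Gja1 encodes connexin 43, the main astrocytic gap junction protein. Its input level was 89.3, 106, 113 and 124 CPM in WT and 94.4, 101 and 91.7 CPM in KO. Its TRAP level was 26.8, 25.9 and 19.0 CPM in WT and 21.3, 27.5, 32 and 11.9 CPM in KO. The fractions did not overlap, and the fold changes were -2.18 ± 0.27 and -2.02 ± 0.25 on the log2 scale. Gjb6 (connexin 30), its partner in astrocytic junctions, changed by -2.04 in WT and -1.89 in KO, and the bicarbonate cotransporter Slc4a4 by -2.16 and -2.04.

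Slc6a11 encodes the GABA transporter GAT-3, which takes up GABA into astrocytes. It measured 17.3, 22, 24.3 and 32.9 CPM in input WT and 19.8, 20.6 and 19.3 CPM in input KO, against 5.92, 4.87 and 2.51 CPM in TRAP WT and 5.69, 5.82, 7.95 and 3.78 CPM in TRAP KO. All TRAP values lay under all input values. The log2 fold change was -2.46 ± 0.31 in WT (adjusted p = 6.62e-06) and -1.77 ± 0.28 in KO (adjusted p = 5.72e-05), the widest gap between the genotypes among the 32 genes, and that gap did not pass the test of the interaction (0.70 ± 0.41, unadjusted p = 0.113).

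The proteins that anchor end-feet at the vessel wall, Mlc1 and its binding partner Hepacam, fell by different amounts. Hepacam changed by -2.20 in WT and -1.95 in KO, and Mlc1 by -1.47 and -1.14. Of the intermediate filaments, Gfap, the classical astrocyte filament, changed by -1.72 and -1.46. Vim (vimentin), which endothelial and other cells also make, changed by -0.85 in WT (adjusted p = 0.00519) and by -0.62 in KO (adjusted p = 0.0251). The KO call for Vim was not past the threshold without input KO library 1 (adjusted p = 0.0923), input KO library 3 (0.063) or TRAP KO library 1 (0.0737). It was also not past it with a replicate block (0.0724), a fit that left out TRAP KO library 4 and input WT library 4.

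Ptprz1, a receptor-type phosphatase that binds matrix proteins, had the lowest ratio of the 32 genes. Input held 96.4, 111, 112 and 138 CPM in WT and 123, 120 and 126 CPM in KO. TRAP held 15.7, 11 and 8.90 CPM in WT and 13.7, 16.7, 19.6 and 12.5 CPM in KO. These TRAP levels correspond by the fit to 10.3% of input in WT and 12.9% in KO, or log2 fold changes of -3.28 ± 0.22 (adjusted p = 1.09e-08) and -2.96 ± 0.19 (adjusted p = 1.36e-08), and Ptprz1 was among the 312 lowest ratios of 16042 genes in WT. Its ligand Tnc (tenascin C) changed less, by -1.55 and -1.25, as did Sparcl1 (hevin), a secreted protein of astrocytes that acts on synapses, at -1.55 and -1.31.

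Enzymes of astrocyte metabolism all fell, and as a group had the median log2 fold change closest to 0 (-1.03 in WT, -0.99 in KO). Glul, glutamine synthetase, changed by -1.07 and -1.01. Aldh1l1, a folate enzyme widely used as an astrocyte marker, changed by -0.995 (adjusted p = 5.39e-04) and -0.72 (adjusted p = 0.00382). Acsbg1, an acyl-CoA synthetase, changed by -0.95 and -0.96, and Dao, D-amino acid oxidase, by -1.31 and -1.21. In TRAP, the median enzyme thus kept more of its input level than the median channel or transporter; the difference between the groups was not tested.

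The cytosolic binding proteins spanned a wide range. Dbi, which binds acyl-CoA, had the highest ratio after Hopx and Cst3 in WT; in KO, Vim (-0.62) was above it. It measured 114, 107, 132 and 114 CPM in input WT and 112, 125 and 106 CPM in input KO, and 70.3, 95.5 and 52.0 CPM in TRAP WT and 80.6, 66.3, 78.5 and 56.6 CPM in TRAP KO. The second TRAP WT library came closest to input but stayed below it, and the log2 fold change was -0.68 ± 0.18 in WT (adjusted p = 0.00374) and -0.67 ± 0.18 in KO (adjusted p = 0.00375). Without that library the WT value was -1.03. Fabp7, the brain lipid-binding protein of radial and Bergmann glia, changed by -1.57 in both genotypes. S100b, a calcium-binding protein of astrocytes, changed by -2.08 ± 0.48 in WT and -1.66 ± 0.44 in KO; its TRAP WT libraries were spread over 53.9, 73.7 and 8.78 CPM, and without the second of them the WT value was -2.93.

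Of the regulators, Sox9 and Sox2, transcription factors of astroglia and of neural progenitors, changed by -1.65 and -1.69 in WT and by -1.52 and -1.65 in KO. Ndrg2, a cytosolic protein abundant in astrocytes, changed by -0.89 and -0.90. The secreted lipid carrier Apoe changed by -1.83 ± 0.45 in WT (adjusted p = 0.00207) and -1.40 ± 0.42 in KO (adjusted p = 0.00801), the chaperone Clu by -1.77 and -1.40, and the protease inhibitor A2m by -2.01 and -1.67. Every role group therefore had lower members, and the 2 higher genes came from the regulators and the secreted proteins.

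Hopx went the other way. It encodes a small homeodomain protein that does not bind DNA by itself and acts through other regulators, and it is used as a marker of radial glia. Input held 174, 158, 176 and 156 CPM in WT and 152, 165 and 153 CPM in KO. TRAP held 1080, 1220 and 787 CPM in WT and 881, 821, 813 and 856 CPM in KO. All 7 TRAP libraries were far above all 7 input libraries. The log2 fold change was 2.63 ± 0.13 in WT (adjusted p = 9.52e-10) and 2.46 ± 0.14 in KO (adjusted p = 4.54e-09), that is, 6.21-fold and 5.50-fold higher in TRAP. Hopx thus moved with the Purkinje markers in direction and below their median in size: Calb1 (calbindin) was 7.03-fold and Pcp2 31.8-fold higher in WT.

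Cst3, cystatin C, a secreted inhibitor of cysteine proteases, was the other gene above input. It measured 125, 138, 155 and 157 CPM in input WT and 124, 156 and 132 CPM in input KO. In TRAP it measured 271, 307 and 235 CPM in WT and 289, 266, 310 and 195 CPM in KO. The lowest TRAP library, KO 4, still lay above the highest input library. The log2 fold change was 0.92 ± 0.16 in WT (adjusted p = 1.23e-04) and 0.97 ± 0.16 in KO (adjusted p = 1.15e-04). Cst3 depends on how libraries are scaled: with library totals in place of TMM factors, which shifted the median of all genes by -0.82 in WT and -0.73 in KO, it was at 0.10 (adjusted p = 0.574) and 0.23 (adjusted p = 0.210) and was not called, while the other 31 genes were.

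**Figure D2:**
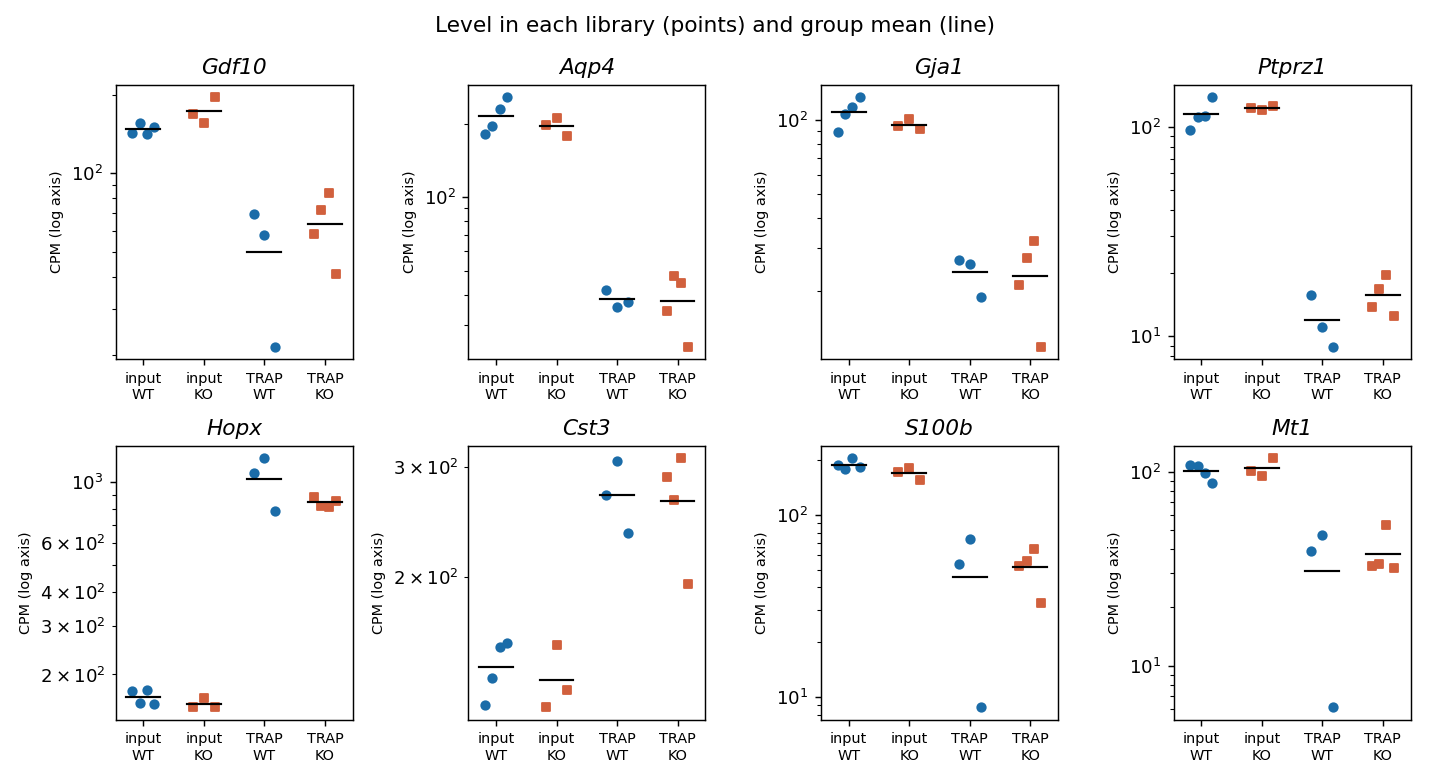
CPM in each library on logarithmic axes for 8 astroglial genes, by fraction and genotype; points are libraries in order of their replicate number and lines are group means. Gdf10, Aqp4, Gja1, Ptprz1, S100b and Mt1 sit lower in TRAP, Hopx and Cst3 sit higher, and TRAP WT library 3 is low for Gdf10, S100b (8.78 CPM) and Mt1 (6.10 CPM).

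Hopx has 2 promoter windows in the RefSeq table (GRCm38.p6, the assembly that mm10 names), 1 at each of 2 listed starts on the minus strand of chromosome 5, in a gene that spans 77086986 to 77115123. They are shown because Hopx is the member with the highest TRAP level against input, and the counts do not say which start was used. The metallothioneins Mt1, Mt2 and Mt3 are shown with them, as 3 neighbouring copies of 1 family on chromosome 8 that fell together. Each window is the 250 bases before a start, 5′ to 3′ on the gene's strand, and capitals mark the metal response element core, searched as TGCACNC or TGCGCNC on both strands.
Hopx, chr5:77095268-77095517, minus strand: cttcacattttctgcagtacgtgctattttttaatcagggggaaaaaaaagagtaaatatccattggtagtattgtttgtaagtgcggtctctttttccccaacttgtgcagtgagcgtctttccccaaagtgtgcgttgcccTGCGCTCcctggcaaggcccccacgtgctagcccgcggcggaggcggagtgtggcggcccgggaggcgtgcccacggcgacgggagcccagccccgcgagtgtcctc
Hopx, chr5:77115124-77115373, minus strand: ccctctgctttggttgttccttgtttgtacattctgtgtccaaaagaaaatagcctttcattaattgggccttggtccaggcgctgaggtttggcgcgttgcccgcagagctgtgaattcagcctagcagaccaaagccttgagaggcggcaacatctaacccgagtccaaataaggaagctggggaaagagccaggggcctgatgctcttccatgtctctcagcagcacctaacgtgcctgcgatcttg
Mt3, chr8:94152357-94152606, plus strand: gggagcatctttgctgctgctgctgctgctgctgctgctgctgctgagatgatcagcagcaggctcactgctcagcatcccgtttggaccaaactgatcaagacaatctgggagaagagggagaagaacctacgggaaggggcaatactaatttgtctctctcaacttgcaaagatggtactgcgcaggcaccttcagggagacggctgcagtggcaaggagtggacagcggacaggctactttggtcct
Mt2, chr8:94172368-94172617, plus strand: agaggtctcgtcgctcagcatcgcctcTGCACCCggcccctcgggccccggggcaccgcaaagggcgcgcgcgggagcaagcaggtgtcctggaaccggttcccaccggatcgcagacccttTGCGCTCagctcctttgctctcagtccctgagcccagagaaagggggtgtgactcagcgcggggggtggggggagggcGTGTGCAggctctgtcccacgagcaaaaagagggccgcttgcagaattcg
Mt1, chr8:94178839-94179088, plus strand: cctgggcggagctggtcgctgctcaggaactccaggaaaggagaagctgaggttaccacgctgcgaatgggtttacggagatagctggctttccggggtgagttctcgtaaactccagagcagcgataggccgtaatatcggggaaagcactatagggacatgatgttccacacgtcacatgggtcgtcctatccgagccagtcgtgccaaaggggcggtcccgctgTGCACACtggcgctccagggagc

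Of the 32 genes, 27 had at least 1 window in that table, 38 windows in all. The core was in 21.4% of the 32851 windows of all genes and in 12 of these 38, so the motif is common in windows of this length. The Mt2 window held 3 matches, at 223, 128 and 50 bases before the start, the Mt1 window 1 match at 23 bases, and the Mt3 window none. One Hopx window held 1 match at 107 bases and the other none. A match is a description of letters. Most of the Mt1 window lies inside the annotated Mt1 gene, which begins at base 94178883, because the table lists a start inside the gene. The Mt1 match is thus not a match before the gene, and its count is not comparable with that of Mt2. The listed starts of Mt2 and of the Hopx window at 77115124 were not found near the start of a GENCODE M21 transcript of those genes.

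Metallothioneins are small cysteine-rich proteins that bind zinc and copper; Mt1 and Mt2 are induced by metals and stress in many cells, and Mt3 is the brain form. The 3 genes lie in a row, with 18469 bases between Mt3 and Mt2 and 5315 bases between Mt2 and Mt1. All 3 were lower in TRAP in both genotypes. Mt1 and Mt2 are similar copies, and the counts of each are uncertain to the extent that reads were shared between them.

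In input, Mt1 measured 109, 108, 99.2 and 88.1 CPM in WT and 101, 95.5 and 118 CPM in KO. In TRAP it measured 39.1, 47.5 and 6.10 CPM in WT and 32.6, 33.4, 53.4 and 31.9 CPM in KO. The third TRAP WT library was the lowest of all 14 by a wide margin. The log2 fold change was -1.71 ± 0.46 in WT (adjusted p = 0.00406) and -1.46 ± 0.44 in KO (adjusted p = 0.00781); without TRAP WT library 2 the WT value was -2.34.

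Mt2 measured 72.3, 70.1, 62.6 and 65.3 CPM in input WT, 61.3, 64.3 and 81.0 CPM in input KO, 21.8, 25.4 and 12.7 CPM in TRAP WT and 19.3, 17.9, 26.7 and 19.8 CPM in TRAP KO. Mt3 measured 159, 150, 160 and 133 CPM in input WT, 141, 154 and 144 CPM in input KO, 67.4, 93.3 and 31.8 CPM in TRAP WT and 70.6, 57.0, 56.4 and 35.9 CPM in TRAP KO. The fractions did not overlap for either gene. Mt2 changed by -1.75 in WT and -1.72 in KO, and Mt3 by -1.24 ± 0.28 and -1.38 ± 0.27, so the estimate for Mt3 was the closest to 0 of the 3 in both genotypes; the differences between the genes were not tested.

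Levels were compared between genes as CPM per kilobase of the longest annotated transcript (GENCODE M21). In input WT, Apoe was highest at 435, followed by Mt3 at 280, Sparcl1 at 269 and Ndrg2 at 197, and Tnc was lowest at 2.43. In TRAP WT, Hopx was highest at 817 ± 176 (SD, n = 3) and Cst3 next at 315 ± 42.2, with Apoe at 124 and Mt3 at 120 ± 57.6, which do not differ beyond their spread. Hopx moved from rank 8 in input WT, level with Mt2 at 132, to rank 1 in TRAP WT, and Cst3 from rank 6 to rank 2. With the mean transcript length in place of the longest, Apoe stayed first in input and Hopx and Cst3 stayed first and second in TRAP, while Ndrg2 took rank 2 in input. The input WT ranks of Hopx and Cst3 were then 11 and 7. Across the 32 genes, longer transcripts had lower TRAP against input values (Spearman's rho of -0.42 in WT and -0.397 in KO), a description over genes that share libraries.

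A further list of 40 astroglial genes outside the 32 behaved in the same direction. In WT, 34 were lower in TRAP, 2 higher and 4 not called, with a median log2 fold change of -1.73; in KO, 33 were lower, 2 higher and 5 not called, with a median of -1.49. Lowest in WT were Daam2, a Wnt pathway regulator, at -2.79, Slc1a2, the glutamate transporter GLT-1, at -2.66, and the lipid enzyme Lcat at -2.46. At the other end were the secreted protease Htra1 at 1.29 in WT and 1.52 in KO, the antioxidant enzyme Prdx6 at 1.00 and 1.12, and the membrane protein Ttyh1, which was not called, at 0.25 and 0.15. Both Htra1 and Prdx6 were called higher in both genotypes. Htra1 averaged 72.7 ± 16.8 CPM (SD, n = 4) in input WT and 173 ± 22.8 CPM (SD, n = 3) in TRAP WT.

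How much of the astroglial RNA was in a TRAP library differed between libraries of 1 group. In TRAP KO library 4, 31 of the 32 genes were below their group mean, with a median deviation of -0.490 on the log2(CPM + 1) scale. TRAP WT library 3 had 27 genes below and a median of -0.425. TRAP KO library 3 had 31 genes above (median 0.362) and TRAP WT library 1 also 31 (median 0.233). The medians of the input libraries lay between -0.155 and 0.135. The median over all genes tested lay between -0.0207 and 0.0146 in all 14 libraries. TMM scaling itself holds that median near 0, so the astroglial deviations are relative to the typical gene, and the median cannot show whether a shift was general.

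**Figure D3:**
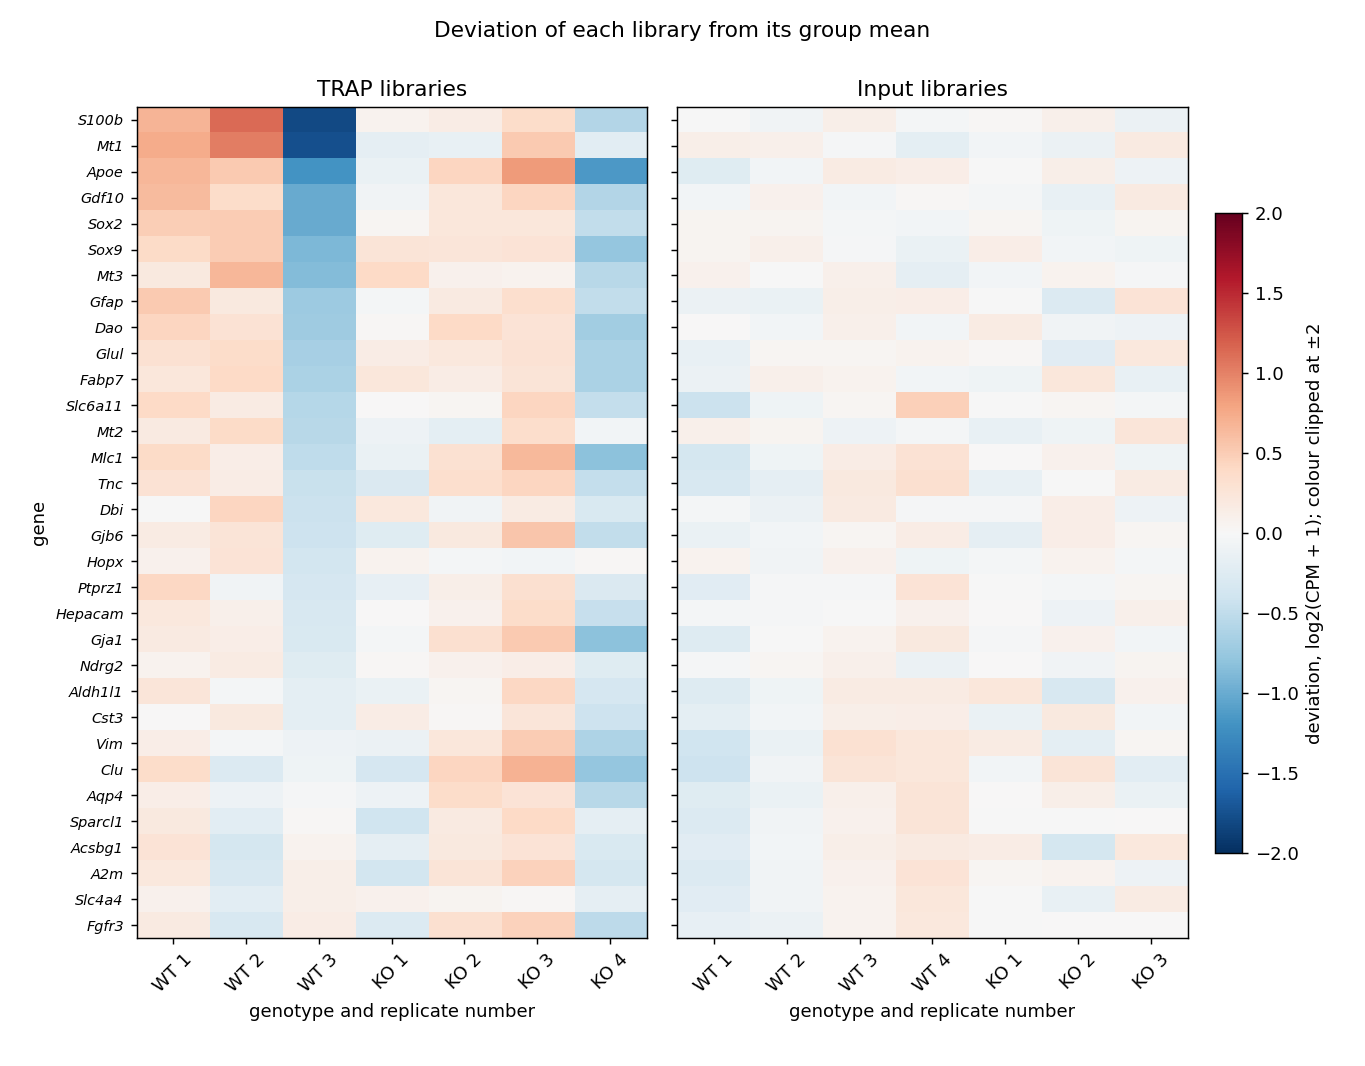
Deviation of each library from its group mean, in log2(CPM + 1), for the 32 genes (rows) and 14 libraries (columns, with genotype and replicate number); blue is below and red above the mean. TRAP WT 3 and TRAP KO 4 are blue in most rows, TRAP KO 3 is red in most rows, and the input libraries are pale.

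Sums of some other marker lists were low in the same libraries. The 6 oligodendrocyte genes summed to 867 CPM in TRAP KO library 4 against 1390 to 1970 CPM in the other TRAP KO libraries, and to 878 CPM in TRAP WT library 3 against 1630 and 1730 CPM. The 6 granule cell genes summed to 473 CPM in TRAP KO library 4 against 686 to 990 CPM, and to 708 CPM in TRAP WT library 3 against 749 and 898 CPM. The 8 Purkinje genes summed to 81700 CPM in TRAP KO library 4 against 75200 to 86500 CPM, and to 80000 CPM in TRAP WT library 3 against 83200 and 95600 CPM. Oligodendrocyte RNA was thus low in both libraries in which the astroglial genes were low, and granule cell RNA was at its lowest in each group there; the part of these libraries' makeup in the astroglial values was not tested. Microglial genes summed to 4.62 CPM in TRAP KO library 4 (others 6.28 to 10.2 CPM) and 6.55 CPM in TRAP WT library 3 (others 7.39 and 7.75 CPM). Endothelial and ependymal sums were the lowest of their group in TRAP KO library 4, at 4.53 and 4.88 CPM, but not in TRAP WT library 3, where the endothelial sum was 8.16 CPM (others 7.82 and 8.90 CPM) and the ependymal sum, 8.61 CPM, was the highest of the group. Sums of choroid plexus genes were not the lowest in either library (94.2 and 204 CPM, the second the highest of its group). Interneuron sums, at 182 and 185 CPM, were in groups that ran from 182 to 198 CPM and from 171 to 219 CPM. A sum follows its highest genes, such as Clic6 in the choroid plexus list (mean of 91.5 CPM in TRAP KO). As means of log2(CPM + 1), interneuron genes were lowest of their group in both libraries (3.813 and 3.879). On this scale, choroid plexus genes were lowest in TRAP KO library 4 (1.734) and ependymal genes in TRAP WT library 3 (1.044). Choroid plexus and endothelial genes were not lowest in TRAP WT library 3 (2.878 and 1.201). Which lists followed the astroglial genes thus depended on the measure, and this was not tested. The genes farthest below their group mean were S100b (-1.81), Mt1 (-1.76) and Apoe (-1.19) in TRAP WT library 3, and Apoe (-1.15), Mlc1 (-0.82) and Gja1 (-0.82) in TRAP KO library 4, so Apoe was among them in both. Without both libraries, all 32 genes were still called in both genotypes, with medians of -1.29 in WT and -1.30 in KO. Of all genes, 12585 were called in WT and 13014 in KO without these libraries, in either direction.

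The comparison of genotypes asked whether loss of Astn2 changed these genes in either fraction. It changed none past the threshold. In TRAP, 0 of the 32 genes had an adjusted p under 0.05 by edgeR's quasi-likelihood test, against 0.00707% of the 14145 genes tested, and 0 had an unadjusted p under 0.05, against 1.50%. In input, 0 of 32 were called, against 0.0188% of 15997 genes, and 3 had an unadjusted p under 0.05, against 13.7% of all genes. DESeq2's Wald test called none of the 32 in TRAP, against 0.0212% of all genes, and 1 in input, Gdf10, against 2.07% of all genes, so that 1 of 32 is near the background there.

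In TRAP the estimates for KO against WT ran from -0.29 to 0.51 on the log2 scale, with a median of 0.132. The highest, Aldh1l1, had an unadjusted p of 0.0589. The 95% intervals reached from -1.16 to 1.59 and lay within 1 log2 unit of 0 for 22 of the 32 genes, so for the other 10 a change of that size in TRAP was not excluded by its interval. The sign of the median rested on single libraries: it was -0.0364 without TRAP WT library 3, -0.185 without TRAP KO library 3 and 0.327 without TRAP KO library 4. It was 0.322 with a block of the replicate number across genotypes. TRAP KO library 4 has no partner in that block and does not inform its estimate, so the fit is not a separate check. In input the estimates were tighter, from -0.23 to 0.30 with a median of -0.00973, and the intervals of all 32 genes lay within 1 log2 unit, between -0.627 and 0.657. The input median also moved with single libraries, to 0.144 with 24 of 32 above 0 without input KO library 3 and to -0.0889 without input WT library 1.

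Aqp4 and Gja1 show the usual case. For Aqp4 the KO against WT estimate was -0.06 ± 0.23 in TRAP and -0.14 ± 0.15 in input, and for Gja1 it was -0.07 ± 0.31 and -0.14 ± 0.12. Hopx was 0.29 lower in KO on the log2 scale in TRAP (-0.29 ± 0.18, unadjusted p = 0.15) and its interval ran from -0.712 to 0.129. The metallothioneins had TRAP estimates of 0.30 ± 0.57 for Mt1, 0.09 ± 0.26 for Mt2 and -0.29 ± 0.35 for Mt3, and input estimates of 0.03, 0.03 and -0.10.

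**Figure D4:**
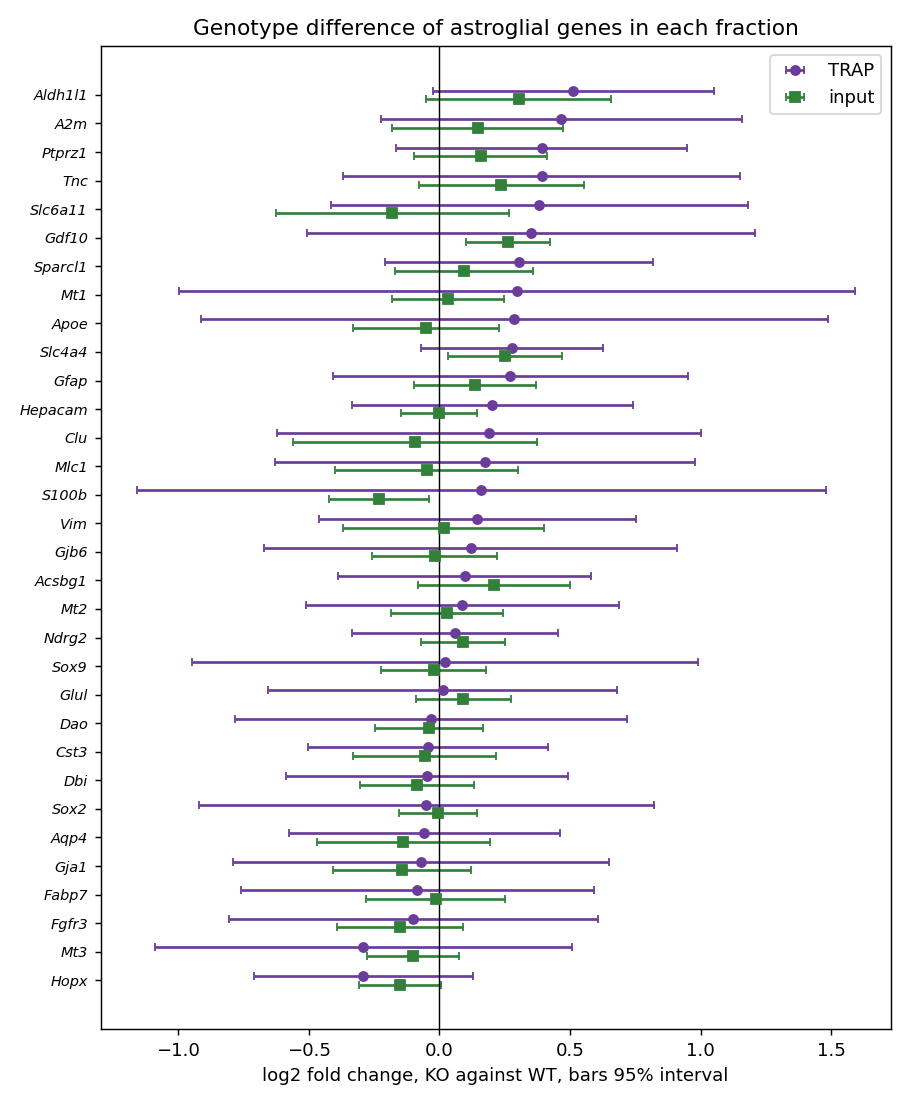
Log2 fold change of KO against WT for each of the 32 genes, with 95% intervals, in TRAP (circles) and input (squares). All TRAP intervals span 0 and are wider than those of input; in input, the intervals of Gdf10, Slc4a4 and S100b leave out 0 before adjustment.

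Gdf10 came closest to a genotype difference. Its 3 input KO libraries, at 156 to 195 CPM, all lay above its 4 input WT libraries, whose highest was also 156 CPM when rounded (155.5 against 156.3 CPM), so the groups touched. The log2 fold change in input was 0.26 ± 0.071 (unadjusted p = 0.00531, adjusted p = 0.218 by edgeR) and passed the threshold by DESeq2's Wald test (0.27, adjusted p = 0.0471). In TRAP the genotypes overlapped, at 0.35 ± 0.38. Over all genes in input, 7.78% had every KO library above every WT library and 3.66% every KO library below, so a gene ordered like Gdf10 was not rare there, and 1 of the 32 genes showed it.

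Slc4a4 was the member ordered in this way in TRAP. It measured 55.6, 54.3, 53.1 and 46.1 CPM in TRAP KO and 45, 36.5 and 46.1 CPM in TRAP WT, with the lowest KO library at 46.14 and the highest WT library at 46.08 CPM. The groups therefore met, and the log2 fold change was 0.28 ± 0.15 (unadjusted p = 0.103, adjusted p = 1). Of all genes in TRAP, 1.94% had every KO library above every WT library and 2.62% below. In input Slc4a4 was at 164, 181, 200 and 225 CPM in WT and 214, 194 and 242 CPM in KO, which overlap, with an estimate of 0.25 ± 0.096 (unadjusted p = 0.029, adjusted p = 0.313). S100b was the only one of the 3 genes with an unadjusted p under 0.05 in input that was lower in KO, at -0.23 ± 0.084 (unadjusted p = 0.0231, adjusted p = 0.295).

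The interaction tested whether TRAP against input differed between the genotypes. It called 0 of the 32 genes and 0.00% of all 16042 genes, and 0 of the 32 had an unadjusted p under 0.05, against 2.68% of all genes. For 27 of the 32 genes the estimate was above 0, with a median of 0.158 against -0.0191 over all genes. This lean depended on single libraries: without TRAP WT library 3 the median was -0.0329 with 15 of 32 above 0, and without TRAP KO library 3 it was 0.0317 with 17 above 0. It was larger without TRAP WT library 2 (0.334, 30 above 0) and without TRAP KO library 4 (0.306, 30 above 0). With the replicate block it was 0.295 with 31 above 0, but that fit also left out TRAP KO library 4 and input WT library 4, so it is not a separate check. The intervals lay within 1 log2 unit of 0 for 21 genes and reached from -1.09 to 1.78 over the list. Of the further list of 40 genes, 0 were called in either genotype comparison.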

How the data were processed

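RNA was sequenced from whole cerebellum (input) and from Purkinje cell TRAP, in 14 libraries. The values deposited by the authors are whole-number read counts per gene with Entrez gene numbers, not normalized. The submitters' processing notes name mm10 and Salmon 0.8.2 without giving their roles; the counting step and its strand setting are not given in the sources used here, so counts of overlapping genes and of similar copies such as Mt1 and Mt2 are uncertain. Groups, sex and replicate numbers came from the labels. Symbols, positions and promoter windows came from RefSeq GRCm38.p6 (24045 of 24100 genes matched) and transcript lengths from GENCODE M21.

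The 32 genes and all lists were chosen with earlier results of these data known. Counts were tested with edgeR 4.0.16 in R 4.3.3 (quasi-likelihood test, two-sided, TMM factors, filterByExpr, Benjamini-Hochberg adjustment over all genes at 0.05). TRAP against input and the interaction were fitted in all 14 libraries with sex as a covariate, and genotype in the 7 libraries of each fraction with sex as a covariate. Standard errors were derived from the log2 fold change and its F statistic. CPM used TMM factors over all 14 libraries, and fits were checked on simulated data. Any of the 32 genes could be named; values per library were given by a written rule: the markers Gdf10, Aqp4 and Gja1, genes higher in TRAP, the 3 lowest and 3 highest ratios in WT, genes with every KO library on 1 side of WT, and the metallothioneins. S100b was added to these after its values were seen. Of the further astroglial genes, the 3 lowest and 3 highest ratios in WT were named. Alternatives were DESeq2 1.42.0, other scaling, other filters on low counts, no sex term, a replicate block and leaving out each library. For TRAP against input and the interaction, the block was genotype and number, and TRAP KO library 4 and input WT library 4, which have no partner, were left out. For genotype within a fraction, the block was the number across genotypes, which the labels do not state to be matched. The library numbered 4 has no partner there. No 2 libraries of a group agreed within sampling noise (chi-square over degrees of freedom of 8.63 to 267 over 18 pairs).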

Additional observations from a re-analysis of the deposited data

Results flagged for a closer look

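In groups of 4 libraries, a value was picked out where the gap between the highest or lowest library and the nearest other, divided by the range of the group, was above Dixon's 95% critical value for 4 values. Of 64 gene and group combinations in the 2 groups of 4, 5 were picked out, and chance gives about 1 in 20.

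TRAP KO library 4 accounted for 3 of them, each on the low side. Sox9 was at 3.52 CPM there against 8.13 to 8.36 CPM in the other 3 libraries (gap over range 0.965). Fabp7 was at 17.7 CPM against 31.4 to 33.7 CPM (0.889), and Glul at 121 CPM against 209 to 232 CPM (0.843). This library was below its group mean for 31 of the 32 genes, so these 3 values are part of a shift over the list. Mt1 was high in TRAP KO library 3, at 53.4 CPM against 31.9 to 33.4 CPM (0.914). In input WT library 1, Glul was at 353 CPM against 401 to 412 CPM (0.831). The low S100b and Mt1 values of TRAP WT library 3 lie in a group of 3, which was not examined in this way.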

How the results depend on the processing

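Calls in TRAP against input were common over all genes: in the main fits, 12118 of 16042 were called in either direction in WT and 12176 in KO. Over 22 alternatives, between 31 and 32 of the 32 genes were called in TRAP against input in each genotype, and none reversed. The calls lost were Cst3 with library totals in both genotypes and, in KO, Vim with the replicate block and without input KO library 1, input KO library 3 or TRAP KO library 1. Leaving out each library in turn gave 32 calls in WT and 31 to 32 in KO. For genotype, 0 of 32 genes were called in TRAP over 16 alternatives and in the interaction over 22. In input, 1 was called by DESeq2's Wald test (Gdf10) and 0 under the other 14 of 15 alternatives, while genes with an unadjusted p under 0.05 ranged from 0 to 9. Over all genes in input, edgeR called 3, against 23 with no filter, 158 without input KO library 2 and 292 by DESeq2. The fit without both TRAP libraries low in these genes was chosen after seeing the data.

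Same-numbered libraries deviated together only in part: the correlations were 0.0988 to 0.292 between input and TRAP in WT and -0.124 to 0.225 in KO. Means over differently numbered libraries were -0.0974 in WT and -0.06 in KO. Deviations were taken from group means, which pushes these means below 0 where same-numbered correlations are above 0, so they are not a separate baseline. Each library correlated best with its own number in WT but not in KO. Input and TRAP libraries that share a genotype and number were also of the same sex. The labels do not state pairs, so the numbers were not taken as pairs, and the main fits took the 14 libraries as independent. With the replicate block, 32 genes were called in WT, 31 in KO and 0 in either genotype comparison and the interaction. The lowest count of any of the 32 genes was 61. The median standard error of KO against WT was 0.30 in TRAP and 0.106 in input.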
